A study of Mus musculus with 12 samples.

Results

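WT mice given ethanol were compared directly with p53 KO mice given saline, in whole somatosensory cortex at postnatal day 7 (P7). The comparison holds 6 of the 12 libraries of the series, 3 in each group, chosen by their genotype and treatment labels, and WT saline did not enter the test. It asks how far the cortex of an ethanol-exposed animal with p53 differed from that of an unexposed animal without it. Both groups are labelled C57BL/6 and male, and came from matings of p53 heterozygotes. The WT ethanol group received intraperitoneal ethanol, the p53 KO saline group (KO saline) received saline, and the tissue was taken 8 hours after the last injection. The KO line carries the Trp53 tm1Tyj allele in every cell, a disruption that leaves the 3′ part of the gene transcribed. Since the 2 groups differ in genotype and in treatment, the effects of these 2 factors cannot be told apart here. Sex-linked transcripts and markers of other brain regions also differed between libraries of the 2 groups, as given below. What goes with them cannot be told apart from genotype and treatment either.

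Trp53 encodes p53, a transcription factor that is held at a low level by the ubiquitin ligase MDM2 and stabilised by DNA damage and other stress. It then activates genes that stop the cell cycle, such as Cdkn1a, or that promote apoptosis, such as Bax and Bbc3. Ethanol at this age, in the period of cortical growth and synapse formation, triggers apoptosis of neurons and is a rodent model of fetal alcohol spectrum disorder. Ethanol acts on GABA-A and NMDA receptors, and it also raises circulating stress hormones.

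The files hold an estimated count for each of 35840 RefSeq transcripts, which were summed to 24452 gene symbols. Total counts were between 5060577 and 15387284 in WT ethanol and between 10143487 and 17066392 in KO saline. Levels of single genes are given as CPM, counts relative to the library total, scaled by TMM factors over the 6 libraries, and sums of marker genes as CPM without these factors (unscaled CPM). In each sentence the WT ethanol libraries are in the order of replicates 4, 5 and 14 and the KO saline libraries in the order of replicates 7, 8 and 9. All fold changes are WT ethanol minus KO saline on the log2 scale. The labels do not say how each library relates to litters or dissections, so the errors describe the spread between these libraries.

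WT ethanol replicates 4 and 14 did not carry the sex-linked transcripts of their male label. Xist, the RNA that silences the second X chromosome of female cells, was at 943, 2.31 and 1955 CPM in WT ethanol and at 0.828, 0.701 and 0 CPM in KO saline. The Y-linked genes Ddx3y, Kdm5d, Uty and Eif2s3y had no count in WT ethanol replicates 4 and 14. In the other 4 libraries their sum was between 142 and 299 unscaled CPM.

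WT ethanol replicate 4 also differed from the rest in markers of other brain regions. The summed level of 10 thalamus markers was 2778 unscaled CPM in this library and between 180 and 235 in the other 5. Tcf7l2, a transcription factor of thalamic neurons, was at 510, 5.62 and 3.71 CPM in WT ethanol and at 5.14, 4.08 and 4.01 CPM in KO saline. Gbx2, another thalamic factor, was at 82.6 unscaled CPM in replicate 4 and at most at 1.19 in the others. Choroid plexus markers summed to 6270 unscaled CPM in WT ethanol replicate 4, to 2850 in KO saline replicate 9 and to between 103 and 597 in the other 4. Striatum markers were led by other libraries, with 210, 609 and 1506 unscaled CPM in WT ethanol and 330, 131 and 148 in KO saline. Excitatory neuron markers were present in all 6 libraries (1670 to 2830 unscaled CPM in WT ethanol, 2141 to 3234 in KO saline).

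**Figure D1:**
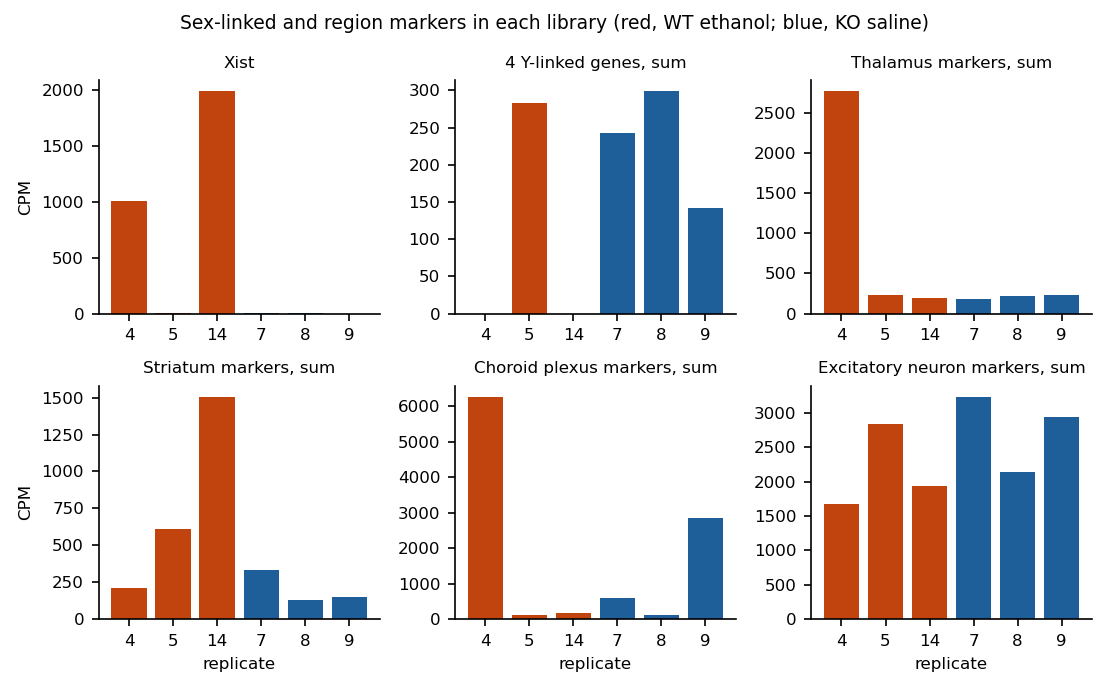
Levels of Xist, of 4 Y-linked genes and of markers of 3 regions and of excitatory neurons in unscaled CPM of each library, with WT ethanol in red, KO saline in blue and replicate numbers on the horizontal axes. Xist stood at 1002 and 1986 CPM in WT ethanol replicates 4 and 14 alone, thalamus markers at 2778 CPM in replicate 4, and striatum markers at 1506 CPM in replicate 14.

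The targeted gene was examined first. Trp53 (chr11:69580359-69591874, mm10) was at 16.0, 7.82 and 22.3 CPM in WT ethanol and at 31.0, 12.1 and 12.7 CPM in KO saline. The groups overlapped, and the fold change of the summed transcripts was -0.28 (95% interval -1.37 to 0.81, adjusted p = 0.9998, edgeR). The sum does not check the genotype, since the 3′ part of the gene is read in KO mice. The estimated division of its reads between both RefSeq transcripts did not overlap between the groups. Transcript NM_001127233 held 21.1%, 7.01% and 23.1% of the Trp53 count in WT ethanol and 68.5%, 70.6% and 65.7% in KO saline. The 3 KO saline libraries all lay above the 3 WT ethanol libraries, an arrangement for which an exact two-sided permutation test gives 0.1, the smallest p of 3 against 3. In the fit to single transcripts the fold changes were -2.11 (95% interval -3.82 to -0.40) for NM_001127233 and 1.07 (-0.14 to 2.27) for NM_011640, each with an adjusted p = 1.0 in edgeR. The share is an estimate by the authors' quantification, and the value of 7.01% recurred in WT saline replicates 1 and 3 and in KO ethanol replicate 12, which had 14.0 to 51.0 Trp53 counts, and that of 70.6% in KO ethanol replicate 10. For the genes within 5 Mb of Trp53, which come from the same chromosome segment as the targeted allele, the median fold change was -0.02 over 137 tested genes. Alox8, a lipoxygenase gene of this segment, was at 4.23, 4.81 and 1.95 CPM in WT ethanol and at 0.580, 0.382 and 0.572 CPM in KO saline (fold change 2.85, 95% interval 1.57 to 4.13, adjusted p = 0.798, edgeR). Tm4sf5, a tetraspanin-like membrane protein, gave 1.86 (0.64 to 3.08). At an unadjusted p under 0.05 the segment held 4 genes higher and 4 lower in WT ethanol, against 2.48% and 1.13% of all genes, and the lower were Pik3r5 (-1.56), Glp2r (-1.54), Xaf1 (-1.29) and Usp43 (-1.07).

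Across the transcriptome the libraries of the 2 groups were about as far apart as libraries of 1 group. The root mean square difference in log2 CPM over the tested genes averaged 0.798 over the 9 pairs between the groups (0.593 to 1.07). It averaged 0.906 over the 3 pairs within WT ethanol (0.743 to 1.01) and 0.719 over the 3 pairs within KO saline (0.587 to 0.855). The mean between groups was thus 0.9823 of the mean within groups, and 0.9909 without WT ethanol replicate 4. Replicate 4 was the farthest from the KO saline libraries, with a mean of 0.958 against 0.731 for replicate 5 and 0.707 for replicate 14. As a description of scale, WT ethanol libraries lay 1.35 from WT saline libraries on average and KO saline libraries 1.31. WT saline libraries also lay 1.42 from each other, and their totals went down to 1953154 counts. To KO ethanol libraries the mean was 1.17 for WT ethanol (0.607 to 2.12) and 1.07 for KO saline (0.365 to 1.89). The farthest was KO ethanol replicate 12, with 719735 counts. KO saline replicate 7 lay nearer to KO ethanol replicates 10 and 18 (0.365 and 0.417) than to its own group (0.716 and 0.855). Closeness was thus not particular to WT ethanol and KO saline.

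**Figure D2:**
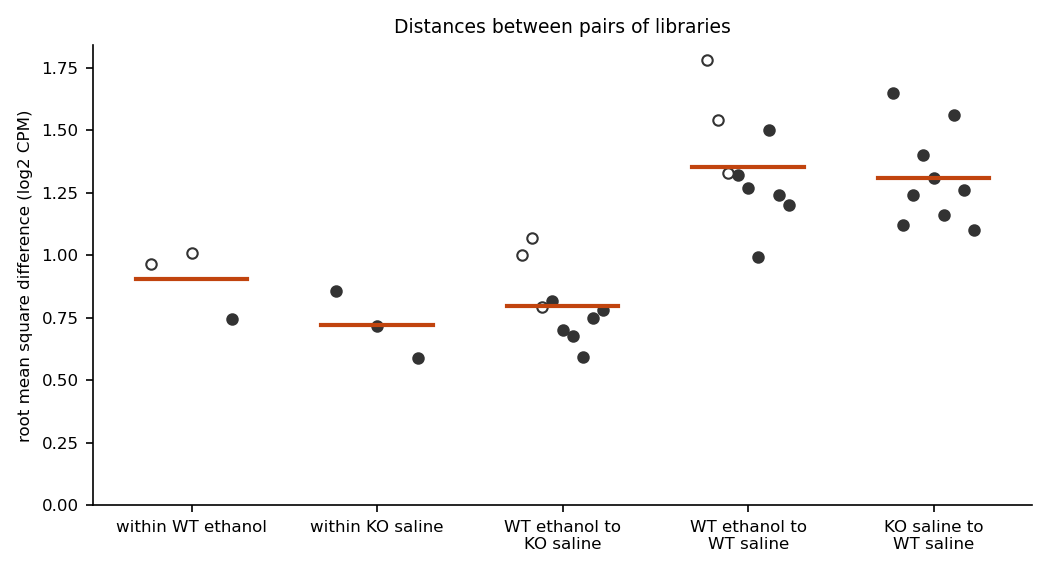
Root mean square difference in log2 CPM (vertical axis) for pairs of libraries, with 1 point a pair, open points for pairs with WT ethanol replicate 4 and a line at the mean. Pairs between WT ethanol and KO saline (0.593 to 1.07) overlapped pairs within each group. Pairs with WT saline had higher means (1.35 and 1.31), with values from 0.993 to 1.78.

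In edgeR's quasi-likelihood test, 0 of 14221 genes (0.0%) passed an adjusted p of 0.05, and the lowest adjusted p was 0.798. At an unadjusted p under 0.05 there were 353 genes higher in WT ethanol (2.48%) and 160 lower (1.13%), 513 in all. DESeq2 called 32 genes at an adjusted p under 0.05 on the same counts, 29 higher and 3 lower in WT ethanol, and 609 at an unadjusted p under 0.05. Among these 32 calls were Penk, Six3 and Isl1 of the striatum markers, Xist, and Foxp2 of the deep layer markers. The groups did not overlap in 537 genes higher in WT ethanol (3.78% of genes tested) and in 479 lower (3.37%). Without WT ethanol replicate 4, edgeR again gave 0 calls at an adjusted p under 0.05, with 264 genes higher (1.84% of 14377) and 208 lower (1.45%) at an unadjusted p under 0.05. Without replicates 4 and 14, the remaining WT ethanol library was tested alone against KO saline on the assumption that it varies as they do, and 0 of 14763 genes passed.

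A gene that missed the threshold was not thereby shown to be alike, so the 95% intervals were counted. For 6070 of 14221 genes (42.7%) the interval lay within 2-fold in either direction, and for 51 it lay within 1.5-fold. In 38 genes the whole interval lay beyond 2-fold. Among the 11781 genes of at least 5 CPM, 6059 (51.4%) were held within 2-fold. The median standard error was 0.37. The narrowest intervals belonged to Sae1, Ppme1 and Kmt2e. Sae1, a subunit of the enzyme that activates SUMO, was at 107, 108 and 105 CPM in WT ethanol and at 106, 107 and 108 CPM in KO saline, and its fold change was -0.01 (95% interval -0.54 to 0.52). Ppme1, a methylesterase of protein phosphatase 2A, gave 0.03 (-0.50 to 0.57), and Kmt2e, a chromatin regulator, gave -0.08 (-0.61 to 0.46).

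Higher in WT ethanol, by the rule of no overlap and smallest p among genes of at least 5 CPM, were Oprk1, Ebf1, Xist, Txnip, Btg3, Zfp503, Dach1, Mt2, Rgs8 and Mgst1, of which none passed in edgeR. Oprk1, the kappa opioid receptor, was at 35.4, 55.2 and 21.5 CPM in WT ethanol and at 8.86, 8.41 and 8.39 CPM in KO saline. Its fold change was 2.13 (standard error 0.38, 95% interval 1.28 to 2.98, adjusted p = 0.798, edgeR) and 2.17 without replicate 4. The KO saline libraries were almost level, and each WT ethanol library stood at least 2-fold above them. Txnip, which binds thioredoxin and limits glucose uptake, was at 179, 112 and 126 CPM in WT ethanol and at 50.6, 54.6 and 38.2 CPM in KO saline (1.54, 95% interval 0.88 to 2.20). Btg3, an antiproliferative gene, was at 23.5, 24.5 and 19.9 CPM in WT ethanol and at 8.03, 6.31 and 7.63 CPM in KO saline (1.63, 95% interval 0.91 to 2.34). Its symbol stands for transcripts on 2 chromosomes in the files, so the sum is uncertain. WT ethanol replicate 5, the library of the group with male transcripts, was its highest in Oprk1 and Btg3 and its lowest in Txnip. That this library lay above every KO saline library in all 3 follows from the rule of no overlap.

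Ebf1, Zfp503 and Dach1 encode transcription factors or cofactors of forebrain development. Zfp503 was at 23.2, 3.31 and 5.66 CPM in WT ethanol and at 0.663, 0.319 and 0.954 CPM in KO saline, a fold change of 4.08 that was 2.79 without replicate 4. Ebf1 was at 14.2, 6.62 and 21.7 CPM against 2.15, 2.29 and 1.34 CPM (2.86, 95% interval 1.69 to 4.02). Dach1 was at 14.0, 32.9 and 38.1 CPM against 7.29, 6.69 and 6.49 CPM (2.05, 95% interval 1.13 to 2.96). Beside these stand the striatum markers. All 11 measured members had a positive fold change (median 2.11, against a median of 0.00 over all genes tested), 9 of 11 had an unadjusted p under 0.05, against 2.48% of all genes, and in 5 the groups did not overlap, against 3.78%. Penk, the enkephalin precursor of striatal neurons, was at 19.9, 120 and 206 CPM in WT ethanol and at 19.5, 6.18 and 5.15 CPM in KO saline. Ppp1r1b, the phosphatase inhibitor DARPP-32, was at 28.4, 206 and 512 CPM in WT ethanol and at 88.8, 13.3 and 21.1 CPM in KO saline. The median of the striatum markers was 2.55 without replicate 4 and 1.57 without replicates 4 and 14. Whether tissue from outside the cortex accounts for any of these genes was not tested.

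Rgs8, a regulator of G protein signalling, was at 114, 64.9 and 70.1 CPM in WT ethanol and at 31.3, 24.4 and 35.4 CPM in KO saline (1.46, 95% interval 0.75 to 2.16). Mgst1, a glutathione transferase of membranes, was at 31.6, 23.7 and 18.3 CPM against 7.21, 9.43 and 8.30 CPM (1.56, 95% interval 0.80 to 2.33). Mt2, a metallothionein that binds zinc and is induced by glucocorticoids, was at 119, 101 and 63.0 CPM against 35.3, 36.6 and 34.8 CPM (1.41, 95% interval 0.74 to 2.08). The 3 genes were at their highest in replicate 4, and without it their fold changes were 1.15, 1.34 and 1.2.

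Lower in WT ethanol by the same rule were Slc17a8, Chac1, Kcnn1, Ciao1, Cemip, Thap2, Kcng1, Fam212b, Nfya and Kcnk10, and none passed in edgeR. Slc17a8, the vesicular glutamate transporter VGLUT3, was at 13.5, 10.6 and 20.3 CPM in WT ethanol and at 30.9, 39.3 and 59.0 CPM in KO saline (-1.55, standard error 0.36, 95% interval -2.36 to -0.74). Chac1, a glutathione-degrading enzyme induced by the integrated stress response, was at 4.85, 3.61 and 5.07 CPM in WT ethanol and at 14.6, 10.1 and 17.7 CPM in KO saline (-1.65, standard error 0.39, 95% interval -2.52 to -0.78). DESeq2 called these 2 of the 10 genes. Of the others, 3 encode potassium channel subunits: Kcnn1 at -1.16 (95% interval -1.83 to -0.49), Kcng1 at -1.55 (-2.58 to -0.52) and Kcnk10 at -1.02 (-1.71 to -0.32). Cemip, a hyaluronan-binding protein, was at 20.3, 28.1 and 18.5 CPM against 50.4, 40.3 and 44.0 CPM. Nfya, the DNA-binding subunit of the CCAAT-box factor NF-Y, was at 21.8, 27.1 and 22.4 CPM against 36.1, 48.4 and 49.4 CPM. Thap2, Ciao1 and Fam212b gave -1.53, -0.99 and -1.03. Without replicate 4 the fold changes of the 10 lay between -1.72 and -0.83, with a negative sign that follows from the rule of no overlap.

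**Figure D3:**
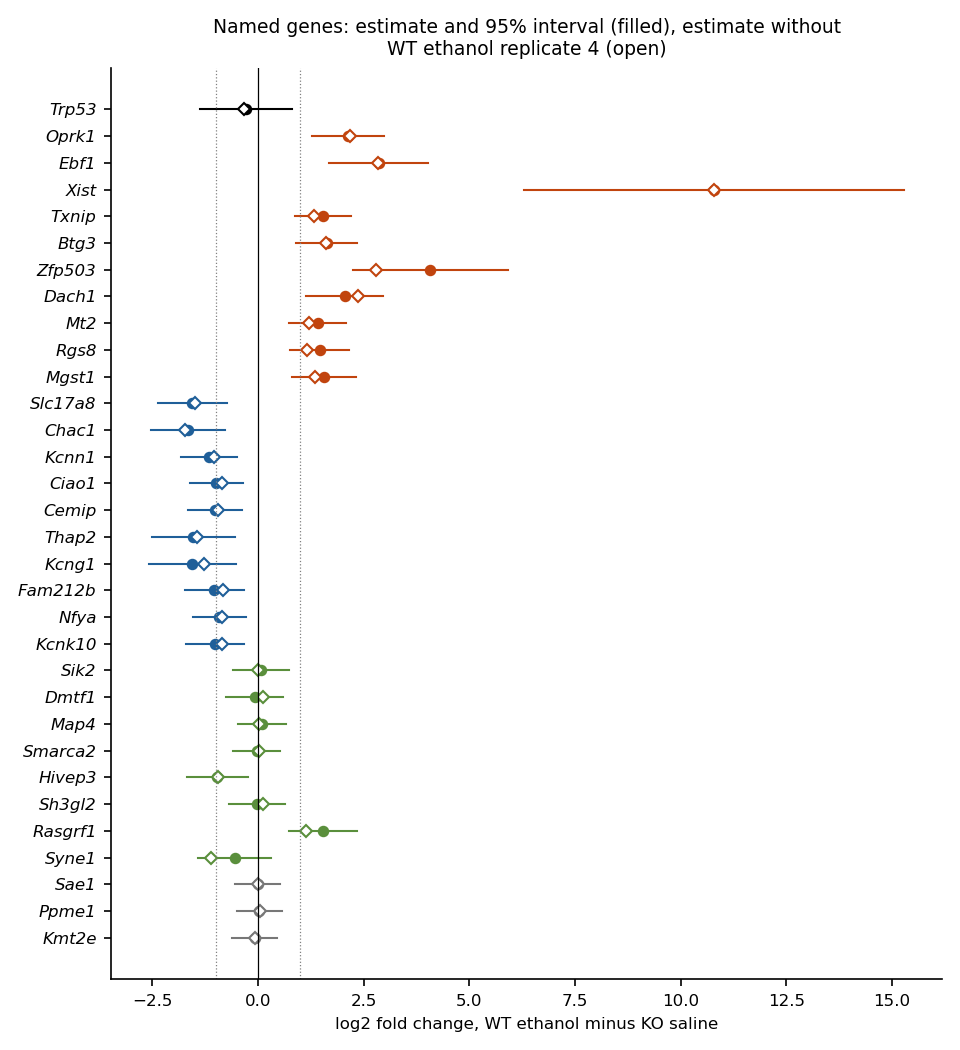
Fold changes (log2, WT ethanol minus KO saline) of 32 genes on the horizontal axis, filled points with 95% intervals over 6 libraries and open points without WT ethanol replicate 4, with dotted lines at 2-fold. Red and blue mark the 10 genes higher and the 10 lower with the smallest p, green the 8 genes followed over all 4 groups, grey the 3 with the narrowest intervals and black Trp53, and Zfp503 moved farthest without replicate 4, from 4.08 to 2.79.

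Direct p53 targets lay on both sides of 0. Of 50 listed genes 46 were tested, 26 with a positive and 20 with a negative fold change, and the median was 0.08 against 0.00 over all genes tested. None passed an adjusted p of 0.05. An unadjusted p under 0.05 was found for 2, both higher, where 2.48% of all genes were. The intervals of 14 (30.4%) lay within 2-fold, against 42.7% of all genes tested. The groups did not overlap in 7 higher and 3 lower members, against 3.78% and 3.37% of all genes tested. At an unadjusted p under 0.05 stood Ptpn14, a phosphatase that restrains YAP, with 16.0, 7.42 and 7.03 CPM in WT ethanol and 4.97, 1.98 and 3.91 CPM in KO saline, and Ephx1, an epoxide hydrolase. Ephx1 was at 17.2, 6.82 and 10.1 CPM in WT ethanol and at 6.38, 4.33 and 5.82 CPM in KO saline. Without replicate 4 their fold changes were 1.00 and 0.61 in place of 1.5 and 1.06, and 0 of the list had an unadjusted p under 0.05.

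The best-known targets, picked for that reason after their values were seen, were spread as follows. Cdkn1a, the cyclin-dependent kinase inhibitor p21, was at 114, 52.8 and 22.4 CPM in WT ethanol and at 25.1, 24.2 and 39.1 CPM in KO saline, so the groups overlapped and the fold change of 1.11 (95% interval -0.02 to 2.24) became 0.36 without replicate 4. Mdm2 was at 37.3, 34.0 and 33.6 CPM in WT ethanol and at 29.3, 27.6 and 30.2 CPM in KO saline, a fold change of 0.27 (-0.31 to 0.84). Its groups did not overlap, and the interval held the difference within 2-fold. Bax, a pore-forming apoptosis effector, gave 0.02 (-0.77 to 0.80) and Bbc3, its activator PUMA, -0.42 (-1.42 to 0.57). Ccng1, which encodes cyclin G1, gave -0.49 (-1.52 to 0.55). Among 22 tested regulators and relatives of p53 the median was -0.05. Trp73, the relative p73, was at 8.52, 1.2 and 0.781 CPM in WT ethanol and at 0.828, 0.701 and 1.72 CPM in KO saline, and its fold change of 1.76 became -0.06 without replicate 4. Chek1, a checkpoint kinase, gave -0.70 (95% interval -1.73 to 0.32).

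Apoptosis genes showed no member past an unadjusted p of 0.05 in 35 tested (median 0.03), and the interval lay within 2-fold for 14 of them. Those with the smallest p were Pmaip1, the BH3-only protein NOXA, at 1.16 (95% interval -0.10 to 2.41), and Parp1, a DNA repair enzyme cleaved in apoptosis, at -0.50 (-1.10 to 0.10). Of 44 cell cycle genes 33 had a negative fold change (median -0.24), and none had an unadjusted p under 0.05, against 3.61% of all genes. Top2a, the topoisomerase of dividing cells, was at 24.3, 14.6 and 22.8 CPM in WT ethanol and at 11.8, 57.0 and 39.8 CPM in KO saline (-0.81, 95% interval -1.93 to 0.30), and Tpx2, a spindle factor, gave -0.83 (-1.83 to 0.16). KO saline replicate 7 was the lowest of all 6 libraries in Top2a, so the negative sign rests on replicates 8 and 9. Because these are whole pieces of cortex, fewer cells of a type and less RNA per cell cannot be told apart.

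Glucocorticoid-responsive and antioxidant genes had more positive than negative fold changes. In the first list 19 of 25 tested genes had a positive fold change (median 0.34) and 5 had an unadjusted p under 0.05, all higher, against 2.48% of all genes. These were Mt2, Pdk4, Mt1, Sult1a1 and Cdkn1c. Pdk4, the kinase that shuts off pyruvate dehydrogenase, was at 18.0, 16.4 and 8.78 CPM in WT ethanol and at 3.98, 4.40 and 6.30 CPM in KO saline (1.56, 95% interval 0.64 to 2.49). The classical targets Fkbp5 and Sgk1 gave 0.20 (-0.50 to 0.90) and 0.38 (-0.47 to 1.23), with overlapping groups. In the antioxidant list, which shares Mt1 and Mt2, 26 of 32 were positive (median 0.23). An unadjusted p under 0.05 was found for 6, all higher, against 2.48% of all genes. Without replicate 4 it was found for 3, against 1.84% of all genes. Mt1 was at 121, 83.0 and 70.9 CPM in WT ethanol and at 49.5, 33.4 and 43.6 CPM in KO saline (1.12, 95% interval 0.44 to 1.80). Gpx1, a glutathione peroxidase, was at 80.2, 118 and 115 CPM against 61.8, 67.8 and 56.5 CPM (0.75, 95% interval 0.15 to 1.35). Without replicate 4 the medians of the lists were 0.17 and 0.11. The glucocorticoid list then had 5 of 25 genes higher at an unadjusted p under 0.05, against 1.84% of all genes. No gene of either list passed an adjusted p of 0.05 in edgeR. Meningeal markers, which summed to 692, 141 and 180 unscaled CPM in WT ethanol and to between 53.9 and 202 in KO saline, were also highest in replicate 4. Their median was 1.53 with 4 of 10 at an unadjusted p under 0.05, all higher, against 2.48% of all genes. Without replicate 4 it was 0.60 with 0 of 10. The part of the meningeal markers in these lists was not tested.

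Immediate early genes, switched on by neuronal activity, lay on both sides of 0. Of 36 tested, 21 were positive (median 0.25, or -0.02 without replicate 4), with 4 higher and 1 lower at an unadjusted p under 0.05, against 2.48% and 1.13% of all genes. Without replicate 4 there were 2 higher and 1 lower, against 1.84% and 1.45% of all genes in that fit. Nr4a3, an orphan nuclear receptor, was at 45.3, 23.2 and 39.0 CPM in WT ethanol and at 39.8, 150 and 141 CPM in KO saline (-1.62, 95% interval -2.69 to -0.55). KO saline replicate 7 overlapped WT ethanol. Cyr61, a secreted matrix protein, was at 10.1, 6.82 and 8.00 CPM against 2.98, 4.02 and 3.53 CPM (1.24, 95% interval 0.34 to 2.14). Fos was at 20.1, 5.82 and 4.10 CPM in WT ethanol and at 3.81, 2.93 and 5.06 CPM in KO saline, a fold change of 1.37 that became 0.35 without replicate 4. In the clock list 19 of 21 were positive (median 0.16) and 2 had an unadjusted p under 0.05, both higher, against 2.48% of all genes. Without replicate 4 it was 1, against 1.84% of all genes. Ciart, a repressor of the clock, gave 1.46 (0.35 to 2.58) and Rora, a clock activator, 0.73 (0.07 to 1.38).

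GABA genes are known targets of ethanol. Of 25 tested, 17 were positive (median 0.16, or -0.02 without replicate 4) and 2 had an unadjusted p under 0.05, both higher, against 2.48% of all genes. Gad2, which makes GABA, was at 113, 124 and 116 CPM in WT ethanol and at 58.2, 63.4 and 73.9 CPM in KO saline (0.85, standard error 0.25, 95% interval 0.30 to 1.41). Abat, the GABA transaminase that degrades it, was at 344, 256 and 288 CPM in WT ethanol and at 171, 162 and 184 CPM in KO saline (0.78, standard error 0.26, 95% interval 0.21 to 1.36). Each group was tight in both genes and the groups did not overlap, while without replicate 4 the fold changes were 0.88 and 0.66. Neither passed an adjusted p of 0.05 in edgeR. Both also stand in the butanoate metabolism list, whose median over 22 genes was -0.06, or 0.03 without replicate 4. Striatal neurons are GABAergic, and the part of the striatum markers given above in these values was not tested. Ionotropic glutamate receptor genes gave a median of -0.02 over 25, with Grik2 at 0.62 (-0.04 to 1.28). Synaptic vesicle genes gave -0.09 over 29, of which 20 had intervals within 2-fold (69.0%, against 42.7% of all genes tested). Cplx1, a clamp of vesicle fusion, gave -0.64 (-1.34 to 0.06). Slc17a6, the transporter VGLUT2 of thalamic neurons, was at 502, 68.3 and 56.6 CPM in WT ethanol and at 43.3, 132 and 106 CPM in KO saline, and its fold change of 1.16 became -0.59 without replicate 4.

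The metabolic and proteostasis lists that follow had medians between -0.09 and 0.20. Cholesterol synthesis was the best bounded, with intervals within 2-fold for 25 of 31 genes where 42.7% of all tested genes had them, and a median of -0.09. Insig1, the sterol sensor that retains SREBP, was at 142, 125 and 104 CPM in WT ethanol and at 82.9, 79.9 and 84.4 CPM in KO saline (0.59, 95% interval 0.02 to 1.15), and Srebf1, a lipogenic SREBP gene, gave 0.86 and -0.08 without replicate 4. Alcohol metabolism genes had a median of 0.20 over 19. The low-level Aldh1a3, which makes retinoic acid, gave -1.58 (-3.13 to -0.04), and Adh1, an alcohol dehydrogenase, gave 1.75 (-0.01 to 3.51). The unfolded protein and integrated stress response list gave -0.00 over 33, with 2 lower at an unadjusted p under 0.05 (1.13% of all genes), Chac1 and Edem1 (-0.75, 95% interval -1.41 to -0.08). Heat shock genes gave 0.03 over 23, with Chordc1, an HSP90 cochaperone, at -0.84 (-1.55 to -0.14) and Hspb8, a small heat shock protein, at 1.21 (-0.00 to 2.42).

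Ribosomal protein and oxidative phosphorylation genes had small fold changes of nearly always the same sign. Fold changes were positive in 76 of 77 ribosomal protein genes (median 0.28) and in 65 of 69 oxidative phosphorylation genes (median 0.19). Of either list 0 genes had an unadjusted p under 0.05, against 3.61% of all genes. Rpl28 gave 0.57 (-0.03 to 1.17) and Rpl14 0.61 (-0.09 to 1.31), while Cox4i1 gave 0.51 (-0.23 to 1.26) and Ndufa8 0.43 (-0.22 to 1.07). These are short transcripts, and the median fold change over all genes went from 0.11 in the 3521 shortest to -0.07 in the 3520 longest. With each library's trends with length and GC content removed, the medians of both lists were 0.07 and 0.01. Without replicate 4 the medians of both lists were 0.54 and 0.44. In that fit 5 and 3 of their genes were higher at an unadjusted p under 0.05, against 1.84% of all genes. The same length groups then gave 0.19 and -0.19.

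**Figure D4:**
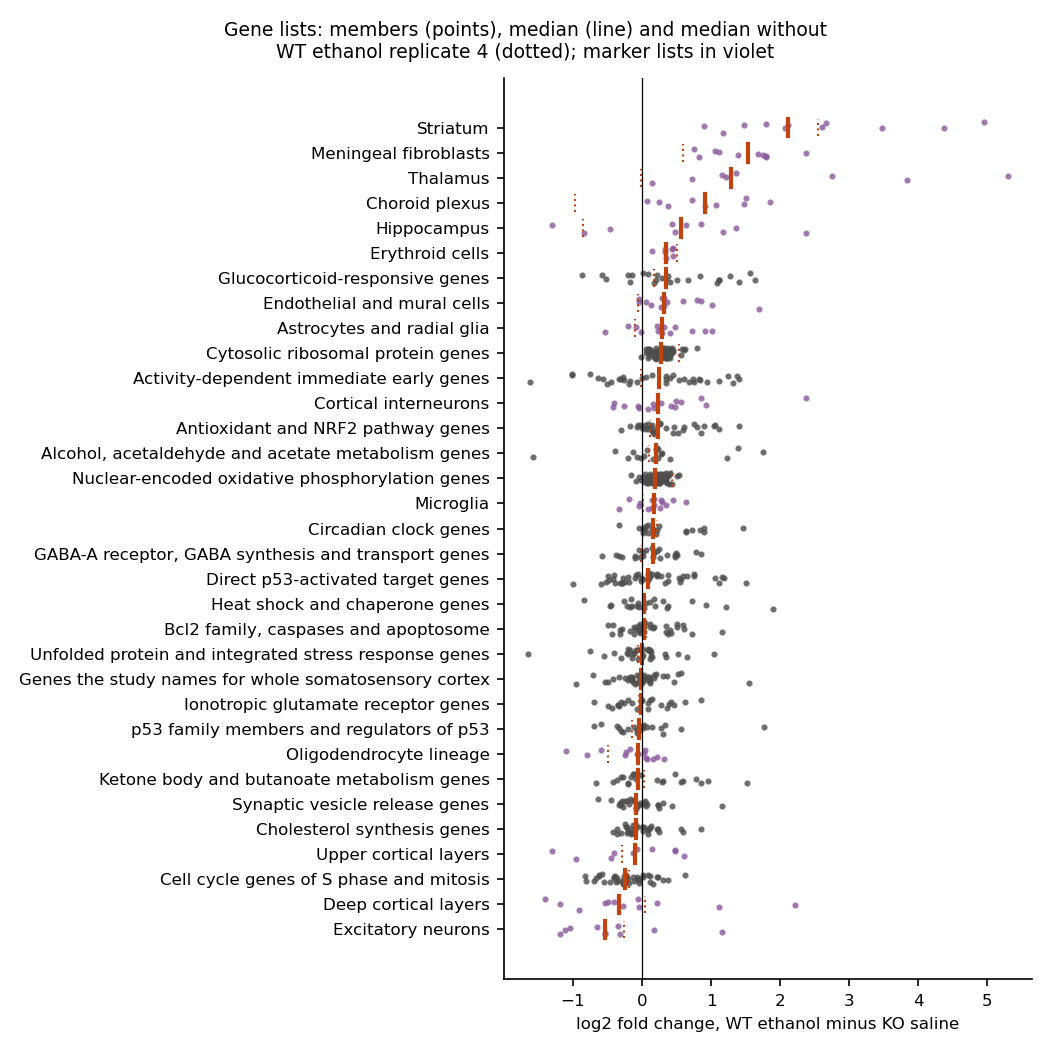
Fold changes (log2, WT ethanol minus KO saline, horizontal axis) of the tested members of each list, with the median as a line and the median without WT ethanol replicate 4 as a dotted line. Pathway lists (grey) centred between -0.24 and 0.34, while the marker lists (violet) for striatum, meninges and thalamus had medians of 2.11, 1.53 and 1.29, which were 2.55, 0.60 and -0.02 without replicate 4.

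Markers of hippocampus and choroid plexus had medians of 0.56 and 0.91, which were -0.86 and -0.97 without replicate 4. Excitatory neuron markers had a negative fold change in 8 of 10 (median -0.53, or -0.26 without replicate 4), and Fezf2, which specifies subcortical projection neurons, was at 8.52, 38.5 and 39.2 CPM in WT ethanol and at 60.7, 62.1 and 72.2 CPM in KO saline. Upper layer markers had a median of -0.10 and deep layer markers of -0.34, or -0.29 and 0.04 without replicate 4. Members lay on both sides of 0, with Foxp2 at 2.22, Sulf1 at 1.11 and Crym at -1.41 among the deep layer markers. Among the upper layer markers Cdh13 was at 0.61 and Pou3f1 at -1.31. Foxp2 was at 188, 47.2 and 60.7 CPM in WT ethanol and at 19.5, 30.2 and 13.8 CPM in KO saline. Its fold change was 1.34 without replicate 4, its highest library, and that of Crym was -1.05. Among glial markers Gpr17, a receptor of differentiating oligodendrocyte precursors, was at 71.3, 55.1 and 69.3 CPM in WT ethanol and at 98.2, 108 and 214 CPM in KO saline (-1.10, 95% interval -1.86 to -0.34). The oligodendrocyte list as a whole had a median of -0.06, or -0.49 without replicate 4, and summed to 536 to 1111 unscaled CPM in WT ethanol and to 591 to 1236 in KO saline. Astrocyte, microglia, interneuron, endothelial and erythroid markers had medians of 0.29, 0.17, 0.23, 0.32 and 0.34, with overlapping sums in every list. Without replicate 4 these were -0.10, 0.02, 0.22, -0.06 and 0.51.

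Earlier results of these data single out 8 genes, and their levels in all 4 groups were set side by side on a scale of TMM-scaled CPM over the 12 libraries, as mean ± SD with n = 3. Sik2, a kinase of the salt-inducible family, was at 17.0 ± 2.21 in WT ethanol and 15.9 ± 1.56 in KO saline, with 4.04 ± 0.855 in WT saline and 12.2 ± 3.46 in KO ethanol. Directly compared, it gave 0.08 (95% interval -0.58 to 0.74). Dmtf1, a transcription factor that activates Arf upstream of p53, was at 75.8 ± 23.7 and 79.3 ± 12.3 in both groups, with 33.1 ± 12.6 in WT saline and 73.1 ± 17.9 in KO ethanol. Its direct fold change was -0.08 (-0.76 to 0.60). Hivep3, a zinc finger protein, was at 17.2 ± 2.50 and 33.3 ± 11.1, against 1.79 ± 0.246 in WT saline and 14.6 ± 9.83 in KO ethanol. WT ethanol lay below KO saline without overlap, at -0.96 (-1.67 to -0.24). Both groups stood above every WT saline library in Sik2, Dmtf1 and Hivep3. The WT saline libraries also differed in composition. Their ribosomal protein genes summed to 61506 to 183653 unscaled CPM, against 26547 to 53013 in the 6 libraries compared. The part of this difference in the levels of single genes was not tested.

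Rasgrf1, a Ras exchange factor of neurons that is imprinted in mice, stood higher in WT ethanol. On the 4-group scale it was at 62.2 ± 27.3 in WT ethanol and 21.1 ± 5.06 in KO saline, with 7.89 ± 2.03 in WT saline and 45.3 ± 19.8 in KO ethanol. Its direct fold change was 1.55 (standard error 0.36, 95% interval 0.74 to 2.35, adjusted p = 0.9998 in edgeR and 0.0358 in DESeq2) and 1.13 without replicate 4. Syne1, a nuclear envelope spectrin repeat protein, was at 116 ± 65.8 and 168 ± 41.7, and its fold change moved from -0.54 (-1.41 to 0.32) to -1.10 without replicate 4, the highest WT ethanol library. Map4, a microtubule-associated protein, gave 0.10 (-0.48 to 0.67), Smarca2, an ATPase of SWI/SNF complexes, gave -0.03 (-0.59 to 0.53), and Sh3gl2, endophilin A1 of synaptic vesicle uptake, gave -0.03 (-0.69 to 0.63). In these 3 genes WT saline also overlapped both groups, with 434 ± 96.0, 137 ± 74.0 and 264 ± 55.1. Over the 42 genes that the study names for this tissue, the median was -0.02. The intervals of 29 lay within 2-fold (69.0%, against 42.7% of all genes tested). These genes were chosen on these samples and are thus no independent evidence. Rasgrf1 (higher) and Hivep3 (lower) were the 2 members at an unadjusted p under 0.05, against 2.48% and 1.13% of all genes.

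**Figure D5:**
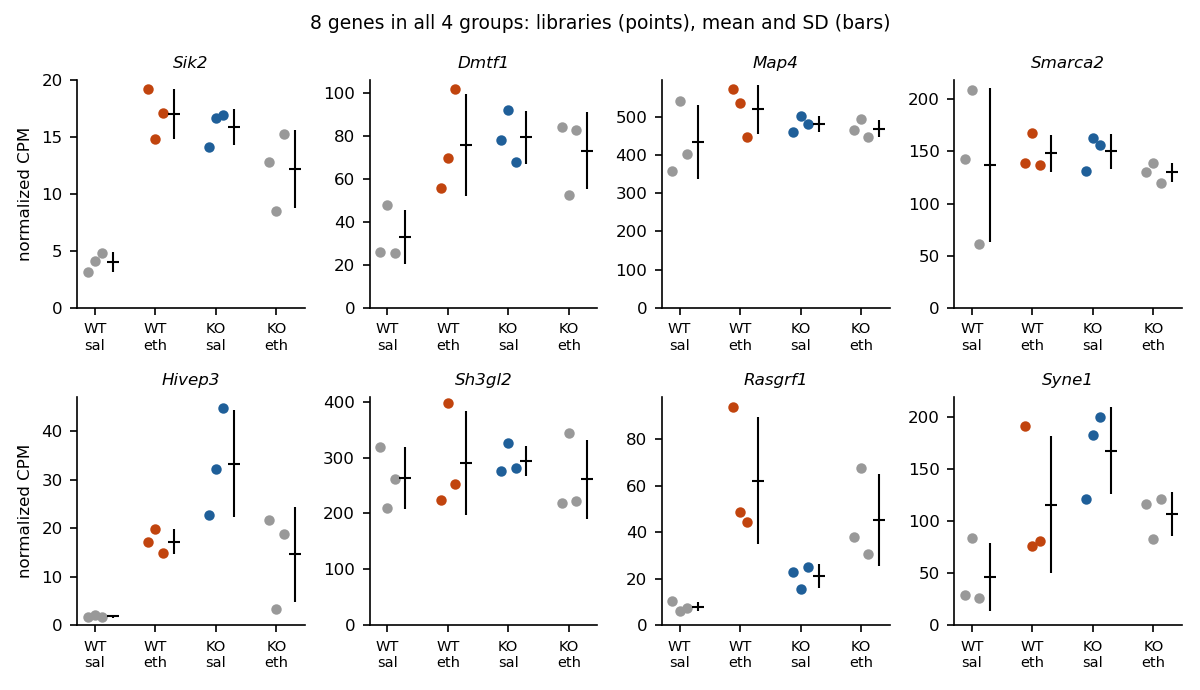
Levels (normalized CPM over 12 libraries) of 8 genes in each library of the 4 groups, with the mean and SD as bars, WT ethanol in red and KO saline in blue. WT ethanol and KO saline overlapped in Sik2, Dmtf1, Map4, Smarca2, Sh3gl2 and Syne1 and did not overlap in Hivep3 and Rasgrf1.

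The same scale shows where WT ethanol stood apart from the other groups in genes named above. Chac1 was at 4.13 ± 0.689 in WT ethanol and at 12.9 ± 3.53 in KO saline, 12.5 ± 2.02 in WT saline and 8.61 ± 3.75 in KO ethanol, and the highest WT ethanol library (4.57) lay below the lowest of the other 9 (6.12). Oprk1 was at 34.4 ± 15.9 in WT ethanol against 7.78 ± 0.125, 5.36 ± 1.79 and 5.20 ± 2.12 in the same order, and again no library overlapped (lowest 19.3 in WT ethanol, highest 7.93 elsewhere). Txnip, Btg3, Mt2 and Slc17a8 overlapped WT saline or KO ethanol. All of these genes, with Chac1 and Oprk1, were chosen for no overlap with KO saline, so their separation from that group was fixed. Not every gene chosen by that rule was set on this scale. Xist was between 0 and 2.06 in the 9 libraries of the other groups.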

How the data were processed

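The members and gene lists were chosen with earlier results of these data known. Per the labels and the methods, stranded libraries were read single-end, aligned by the authors to mm10 with Bowtie2 within TopHat and annotated to RefSeq in Partek Flow, whose settings are not given in the sources used here. The deposited estimated counts hold fractions from shared reads. They were summed per gene symbol (59 transcripts with date-like symbols left out, 55 symbols on several chromosomes) and rounded. The deposited RPKM values were quantile normalized by the authors and were used in an alternative only. Laser dissection and hole punches could not be assigned to libraries.

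The 6 libraries were fitted with the quasi-likelihood functions of edgeR 4.0.16 under R 4.3.3, using default filtering, TMM factors (0.922 to 1.07) and 1 mean per group, two-sided, with Benjamini-Hochberg adjustment over 14221 genes. Intervals used the t distribution. Libraries of a group differed far beyond counting noise. Alternatives were DESeq2 1.42.0 and limma 3.58.1 (RPKM on the log2 scale after adding 1 or 0.1), all 12 libraries, other filters and scalings, unsummed transcripts, length and GC trends (splines with 5 degrees of freedom), no X and Y, and each library left out. Leaving out WT ethanol replicates 4 and 14 together was added after seeing the data. Scripts were tested on simulated data. Named genes were Trp53, the 10 higher and 10 lower of smallest p without overlap and at least 5 CPM, the 2 of smallest p in each pathway list (1 of these is not reported here), 8 genes from earlier results and the 3 narrowest intervals. List members cited at an unadjusted p under 0.05, and well-known members, were chosen after their values were seen. Summaries used Python 3.11.15.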

Additional observations from a re-analysis of the deposited data

How the results depend on the processing

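The number of genes at an adjusted p under 0.05 was 0 in every alternative but DESeq2 (32) and the fit without WT ethanol replicate 5 (4, namely Xist, Ddx3y, Eif2s3y and Kdm5d). Leaving out 1 library gave 0 to 4 genes at this level and 0 to 6 at an adjusted p under 0.30, where DESeq2 gave 83. At an unadjusted p under 0.05 it gave 193 (without KO saline replicate 8) to 612 genes (without WT ethanol replicate 14) higher in WT ethanol and 62 (without KO saline replicate 9) to 361 (without WT ethanol replicate 14) lower. The lower count was 80 with all 12 libraries, 243 for transcripts, 293 without KO saline replicate 7, 297 with length and GC trends removed and 337 without replicates 4 and 14, and the higher count was 649 with at least 1 count in any library. Intervals within 2-fold were found for 6070 genes in the analysis reported, for 2544 (without KO saline replicate 9) to 5072 without 1 library (3550 without WT ethanol replicate 14), 3151 with all 12, 10082 in limma on log2(RPKM + 1) and 715 without replicates 4 and 14, where fewer libraries entered. The ratio of distances was 1.026 for the 500 most variable genes.

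Of 1032 values of 65 named genes, 26 changed sign, in 10 genes and none at a called value. Without 1 library, in turn, the fold change lay between -0.36 and 0.11 for Dmtf1, -0.32 and 0.13 for Sh3gl2, -0.13 and 0.03 for Smarca2, -0.64 and 0.28 for Trp53, -0.03 and 0.01 for Sae1, -0.01 and 0.18 for Sik2, -0.59 and 1.59 for Slc17a6, -0.08 and 1.18 for Srebf1, and -0.06 and 2.23 for Trp73. Without replicates 4 and 14 Sae1 gave 0.02, Sh3gl2 0.42, Sik2 -0.12, Slc17a6 -0.45, Smarca2 0.16 and Srebf1 -0.17. With length and GC trends removed Kmt2e gave 0.00 and Smarca2 0.02, and Sae1 gave 0.00 with all 12 libraries and without X and Y. The cause was not tested.

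No paired analysis was made, because the labels do not say which libraries share a litter or dissection.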

Other observations

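The X-linked partners of the Y genes, which partly escape X inactivation, were measured beside the sex-linked transcripts. Eif2s3x was at 324, 227 and 330 unscaled CPM in WT ethanol replicates 4, 5 and 14 and at 129, 284 and 204 in KO saline replicates 7, 8 and 9. Kdm6a was at 57.5, 29.1 and 48.0 in WT ethanol and at 23.0, 38.6 and 32.0 in KO saline. In both genes the libraries rich in Xist were the highest of the 6. Kdm5c showed the same order, with 99.5, 40.4 and 90.0 in WT ethanol and 71.2 to 81.3 in KO saline. Ddx3x did not, with 540, 497 and 494 in WT ethanol and 250, 576 and 417 in KO saline. These genes were picked after the Xist values were seen, and no test was made.

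Without WT ethanol replicate 4, 6 genes had an adjusted p under 0.30 in edgeR (Dach1, Gpx6, Penk, Cpq, Ido1 and Tac1). Penk and Tac1 are neuropeptide genes of the striatum list, with adjusted p = 0.133 and 0.285 in edgeR. Without KO saline replicate 7, Nts, which encodes neurotensin, was the single gene at this level, with a fold change of -3.18 and an adjusted p = 0.0767 in edgeR.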
